A study of Mus musculus with 12 samples.

Results

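Small nucleolar RNAs (snoRNAs), their Cajal body relatives, the long host transcripts that carry them and 5 abundant nuclear or nucleolar RNAs were followed in myeloid-derived suppressor cells. These are immature myeloid cells that accumulate with a growing tumour and hold back T cell responses. The members were all genes whose symbol starts with Snora, Snord, Scarna or Snhg and a number, together with Malat1, Neat1, Rn45s, Gas5 and Rmrp. They came to 135 of the 23479 genes of the deposited table: 74 Snord, 36 Snora, 9 Scarna and 11 Snhg genes and the 5 others. All 12 libraries came from C57BL/6 mice bearing established tumours of B16, a mouse melanoma line. The cells were flow-sorted from spleen as monocytic (M-MDSC) or polymorphonuclear (PMN-MDSC) cells. The 4 groups of 3 libraries were M-MDSC LD, M-MDSC Ctrl, PMN-MDSC LD and PMN-MDSC Ctrl. LD mice had been lymphodepleted with fludarabine, a purine analogue that blocks DNA synthesis, and the alkylator cyclophosphamide, and spleens were taken 7 days after treatment. Ctrl mice carried the same tumours and were untreated. The age and sex of the mice were not given in the sources used here. The design text counts 3 mice per arm, but the labels tie no library to a mouse, so both populations may come from the same animals and p-values measure only the spread between these libraries.

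Most snoRNAs sit in introns of other genes and are trimmed from the spliced-out intron. Box C/D snoRNAs (Snord genes) bind fibrillarin and guide ribose methylation of ribosomal RNA. Box H/ACA snoRNAs (Snora genes) bind dyskerin and guide the change of uridine to pseudouridine. Small Cajal body RNAs (Scarna genes) guide the same reactions on the spliceosomal RNAs. Snhg genes and Gas5 are host genes whose spliced exons make little or no protein. Rn45s is the precursor of the large ribosomal RNAs, Rmrp is the RNA of the endonuclease RNase MRP that cuts that precursor, Malat1 lies in nuclear speckles, and Neat1 is the scaffold of paraspeckles.

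The sequences of both box classes were taken from GENCODE M21 on the mouse build GRCm38 (mm10), the build named for the table. Of the 135 members, 131 matched a gene model there. The median span was 80 bases for Snord and 132 for Snora genes. The box C motif TGATGA lay in the first 20 bases of 46 of 72 Snord sequences (63.9%) and of 0 of 36 Snora sequences. Over the whole length it lay in 49 of 72 Snord sequences on the given strand and in 1 of 72 on the opposite strand. The box D motif CTGA lay in the last 20 bases of 70 of 72 Snord sequences (97.2%), against 4 of 36 Snora sequences. The triplet ACA followed by exactly 3 bases closed 30 of 36 Snora sequences (83.3%) and 0 of 72 Snord sequences. Each count is a match of letters, not a tested site.

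Snord15b (chr7:99479563-99479707, minus strand) and Snord15a (chr7:99482785-99482932, minus strand), both inside the ribosomal protein gene Rps3, are shown because they held most of the Snord signal. Capitals mark TGATGA and CTGA. Aligned end to end, the pair were identical at 98 of 152 positions (64.5%).
Snord15b: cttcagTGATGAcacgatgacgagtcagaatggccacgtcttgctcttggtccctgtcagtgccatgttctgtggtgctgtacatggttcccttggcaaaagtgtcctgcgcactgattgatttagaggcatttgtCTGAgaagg
Snord15a: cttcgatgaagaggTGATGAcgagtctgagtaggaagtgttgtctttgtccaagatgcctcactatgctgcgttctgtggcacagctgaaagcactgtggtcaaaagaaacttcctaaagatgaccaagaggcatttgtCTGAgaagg

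Snord99 (chr4:132310691-132310764, plus strand), Snora16a (chr4:132309464-132309600, plus strand), Snora44 (chr4:132309941-132310069, plus strand) and Snora61 (chr4:132310240-132310369, plus strand) are shown because 1 host gene, Snhg12, holds all 4, while the box C/D RNA and the box H/ACA RNAs differed in their levels. Capitals mark TGATGA and CTGA in Snord99 and the terminal ACA in Snora16a and Snora61. The annotated sequence of Snora44 has no ACA at that distance from its end.
Snord99: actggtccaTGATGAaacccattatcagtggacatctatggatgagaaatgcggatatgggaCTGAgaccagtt
Snora16a: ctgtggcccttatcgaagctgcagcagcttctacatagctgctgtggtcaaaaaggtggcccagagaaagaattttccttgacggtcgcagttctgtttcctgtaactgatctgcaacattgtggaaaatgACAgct
Snora44: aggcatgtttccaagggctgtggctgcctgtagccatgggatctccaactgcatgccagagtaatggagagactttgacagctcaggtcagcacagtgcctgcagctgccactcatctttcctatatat
Snora61: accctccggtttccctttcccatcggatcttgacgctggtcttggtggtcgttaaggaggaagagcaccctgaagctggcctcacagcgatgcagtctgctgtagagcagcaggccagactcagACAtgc

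Snord89 (chr1:39548745-39548854, minus strand), Snord47 (chr1:161038082-161038158, plus strand), Snord12 (chr2:167065276-167065365, plus strand) and Snord35a (chr7:45126346-45126435, minus strand) are shown because, with Snord15b, they were the 5 Snord genes that changed with LD in PMN-MDSC. Capitals mark the same 2 motifs; Snord35a has no TGATGA in its first 20 bases.
Snord89: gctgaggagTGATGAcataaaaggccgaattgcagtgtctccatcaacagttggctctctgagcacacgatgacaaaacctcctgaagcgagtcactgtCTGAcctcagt
Snord47: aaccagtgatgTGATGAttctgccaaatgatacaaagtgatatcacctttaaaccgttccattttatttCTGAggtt
Snord12: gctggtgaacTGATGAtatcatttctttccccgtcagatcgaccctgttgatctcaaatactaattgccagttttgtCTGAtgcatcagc
Snord35a: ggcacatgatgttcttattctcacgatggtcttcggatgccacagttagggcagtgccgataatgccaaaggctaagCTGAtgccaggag

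Values are normalized counts, that is, reads per gene divided by 1 size factor per library. The libraries were made from total RNA depleted of ribosomal RNA with probes and extracted on spin columns of a kind that hold short RNA poorly, so the level of a short RNA here is not its cellular abundance. Recovered reads per library ran from 8906045 to 16242926. Sums over 8 monocyte markers were 69552.6 to 86785.6 in M-MDSC LD and 102702.8 to 121696.3 in M-MDSC Ctrl, against 8272.1 to 10439.0 in PMN-MDSC LD and 10002.2 to 12597.3 in PMN-MDSC Ctrl. Sums over 8 neutrophil markers ran the other way, from 649514.9 to 743563.2 in PMN-MDSC LD and 413158.1 to 439533.8 in PMN-MDSC Ctrl. They were 13138.2 to 54397.8 in M-MDSC LD and 6886.5 to 7911.4 in M-MDSC Ctrl. The sums of 4 markers each of B cells, T cells, red cells, platelets and melanoma cells did not exceed 139.7 in any library. Markers also moved with LD. The sums of 5 cell division markers were 11974.6, 3484.8 and 4849.9 in M-MDSC LD, all above the 1071.5 to 1306.7 of M-MDSC Ctrl, and 9338.0, 1832.7 and 2862.0 in PMN-MDSC LD, against 2425.8 to 3174.7 in PMN-MDSC Ctrl. Sums over 4 genes of immature granules were 1510.6 to 7130.4 in M-MDSC LD and 196.2 to 230.6 in M-MDSC Ctrl, and 47.1 to 461.2 in PMN-MDSC LD and 14.9 to 22.4 in PMN-MDSC Ctrl, with no overlap in either population. Replicate 1 stood apart in both LD groups by its cell division markers. The same 2 libraries had the lowest share of reads on snoRNAs and scaRNAs of their groups, at 0.0455% in M-MDSC LD and 0.0502% in PMN-MDSC LD. The lowest share of all 12 libraries, 0.0312%, was that of PMN-MDSC Ctrl replicate 3, against 0.0536% and 0.046% in replicates 1 and 2 of its group. The part of these marker differences in the LD results was not tested beyond the values without single libraries.

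At least 1 read in at least 1 library was found for 119 of the 135 members, and 78 had a read in all 12 libraries. The other 16 were listed at 0 throughout, 12 of them Snord and 4 Snora genes. They included Snord118, the U8 RNA needed to process large-subunit ribosomal RNA, and Snord116, an imprinted gene family known from brain. Of the 15 members listed at 0 that had a gene model, 7 lay inside an exon of another gene, among them Snord14c and Snord14d in Hspa8. Of the 61 tested snoRNAs and scaRNAs, 28 overlapped such an exon, 24 of them lying inside it. How the counting treated reads shared with a host exon, or reads with several matches, was not given in the sources used here, so a 0 there does not show that the RNA was missing, and the levels of exonic snoRNAs are uncertain in the same way.

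The number of members with a read was 110, 109 and 106 in M-MDSC LD, 112, 110 and 111 in M-MDSC Ctrl, 99, 101 and 104 in PMN-MDSC LD and 105, 109 and 102 in PMN-MDSC Ctrl. All 6 M-MDSC libraries held more than every PMN-MDSC library but 1, replicate 2 of PMN-MDSC Ctrl. With all libraries thinned to the lowest depth, the groups averaged 106.9 members in M-MDSC LD, 109.6 in M-MDSC Ctrl, 100.2 in PMN-MDSC LD and 101.8 in PMN-MDSC Ctrl. A mean of at least 10 normalized counts over the 12 libraries was asked for in the tests, and 73 members reached it: 35 of 74 Snord, 21 of 36 Snora, 5 of 9 Scarna and 7 of 11 Snhg genes and all 5 others.

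Rn45s took 6.02%, 7.73% and 8.2% of the reads in M-MDSC LD and 8.82%, 10.5% and 9.92% in M-MDSC Ctrl. Its share was 2.64%, 2.48% and 3.82% in PMN-MDSC LD and 2.34%, 1.87% and 1.92% in PMN-MDSC Ctrl. Every M-MDSC library was therefore above every PMN-MDSC library. These are reads that remained after depletion, so the shares cannot tell the precursor from other ribosomal RNA that was left by incomplete removal. Malat1 took 1.58%, 1.54% and 1.46% in M-MDSC LD, 1.48%, 1.06% and 1.63% in M-MDSC Ctrl, 1.98%, 1.95% and 1.81% in PMN-MDSC LD and 2.87%, 3.79% and 4.15% in PMN-MDSC Ctrl. All snoRNAs and scaRNAs together took between 0.0312% and 0.107% of the reads.

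Per kilobase of annotated span, Snord15b led the short RNAs with a mean level of 19395.76 normalized counts per kilobase over the 12 libraries. Rmrp followed with a level of 6715.76 per kilobase and Snord15a with 5886.48. The next, Snord82, was at a level of 1802.49 per kilobase, and Scarna2, the highest of its class, at 1493.17. Snord15a and Snord15b are guides for methylation of large-subunit ribosomal RNA.

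The summed levels of the classes ordered the groups differently. The 74 Snord genes summed to 4698.5 ± 1584.1 normalized counts in M-MDSC LD, 6887.0 ± 1609.5 in M-MDSC Ctrl, 7780.8 ± 2920.5 in PMN-MDSC LD and 3803.2 ± 1042.6 in PMN-MDSC Ctrl (SD, n = 3 each). The 36 Snora genes summed to 480.8 ± 87.7, 620.9 ± 256.2, 1647.8 ± 576.8 and 862.7 ± 262.4 in the same order of groups. The 9 Scarna genes summed to 706.5 ± 155.8 in M-MDSC LD, 590.9 ± 106.0 in M-MDSC Ctrl, 1878.1 ± 493.7 in PMN-MDSC LD and 1528.7 ± 385.4 in PMN-MDSC Ctrl. The 11 Snhg hosts ran opposite to the Scarna genes, with sums of 318.9 ± 23.7 in M-MDSC LD and 345.6 ± 25.4 in M-MDSC Ctrl, against 208.0 ± 35.5 in PMN-MDSC LD and 222.0 ± 35.0 in PMN-MDSC Ctrl. Mean Snora and Scarna sums were thus lowest in the M-MDSC groups and Snhg sums highest there, and the mean Snord sum was lowest in PMN-MDSC Ctrl. The Snord sums of PMN-MDSC Ctrl, 2657.7 to 4696.6, lay below the 5203.0 to 8409.9 of M-MDSC Ctrl but overlapped those of both LD groups. The Snora libraries of M-MDSC Ctrl and PMN-MDSC Ctrl overlapped. Scaled to totals without members, the Snora order in Ctrl mice turned, with mean sums of 823.1 in M-MDSC Ctrl and 699.6 in PMN-MDSC Ctrl. These sums carry no test.

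**Figure D1:**
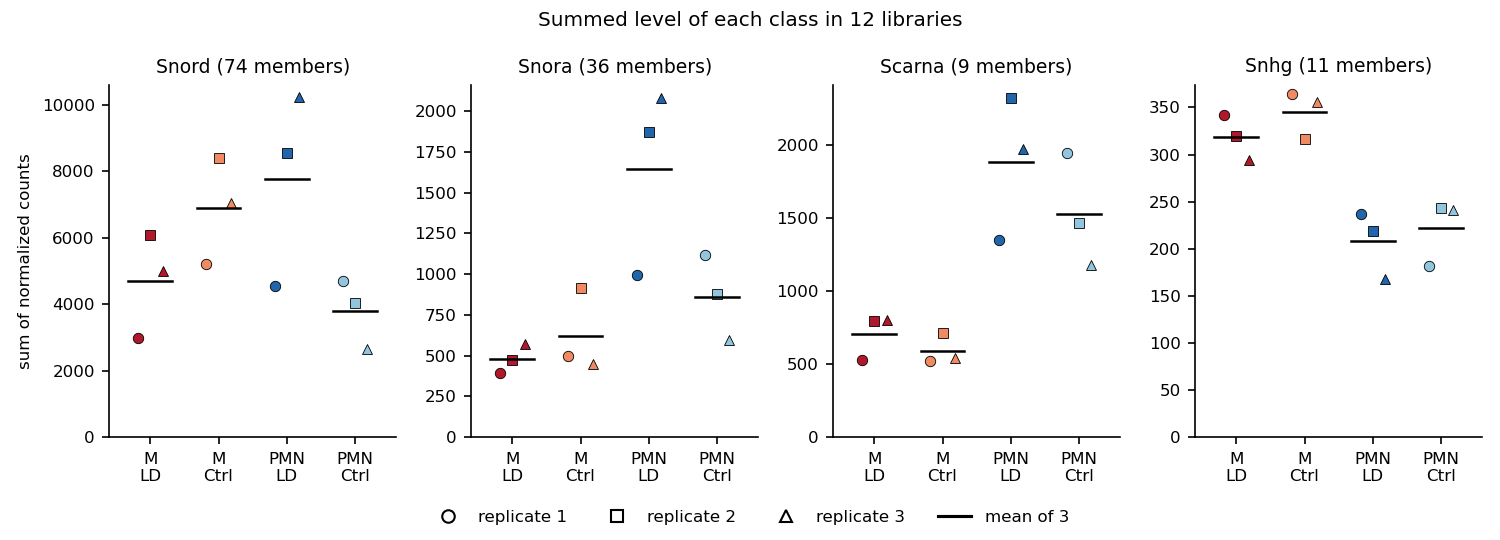
Sum of normalized counts over all members of each class (y axis, from 0) in each library of the 4 groups (x axis), with symbols for the replicate number and a line at the mean of 3. Snora and Scarna sums are higher in PMN-MDSC than in M-MDSC under LD, with Snora means of 480.8 in M-MDSC LD and 1647.8 in PMN-MDSC LD, whereas the Snhg sums are higher in M-MDSC.

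The first question was how the members differ between the populations. In untreated mice 30 of the 73 tested members (41.1%) differed between M-MDSC and PMN-MDSC, 21 higher and 9 lower in M-MDSC (limma on log2 values, adjusted p under 0.05 over all genes). This was below the share of all tested genes, of which 75.6% were called, 38.8% higher and 36.8% lower. The classes split by direction: 16 of 35 Snord genes were higher and 1 lower, 0 of 21 Snora genes were higher and 2 lower, and 4 of 5 Scarna genes were lower. Of the 7 Snhg genes tested, 2 were higher. The libraries of the populations did not overlap for 27 members higher and 11 lower in M-MDSC, against 41.9% and 39.1% of all genes. The median log2 change was 0.98 for Snord, -0.74 for Snora and -1.28 for Scarna genes, against 0.06 for all genes. With libraries scaled to their totals without the members, the median of all genes moved to 0.79 and 35 members were higher and 5 lower, with class medians of 1.73 for Snord, -0.08 for Snora and -0.60 for Scarna genes and 0 of 21 Snora genes called; with TMM scaling, 24 were higher and 9 lower. Without PMN-MDSC Ctrl replicate 3, the library of lowest depth and of lowest snoRNA and scaRNA share, 9 were higher and 11 lower. The shares of all genes called under these scalings and without that library are not given here. The counts are therefore not results about the members alone.

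Malat1 stood at 134021.9, 99937.1 and 148159.4 normalized counts in M-MDSC Ctrl, against 415036.0, 526556.6 and 590364.8 in PMN-MDSC Ctrl. The groups did not overlap, and Malat1 was 4.02-fold lower in M-MDSC (log2 change -2.01 ± 0.22, SE; limma adjusted p = 1.2e-06). Neat1 stood at 11806.7, 9305.5 and 11728.8 normalized counts in M-MDSC Ctrl, against 36750.3, 73285.1 and 85205.7 in PMN-MDSC Ctrl. It was 5.63-fold lower (log2 change -2.49 ± 0.29; limma adjusted p = 1.7e-06). Rn45s went the other way, with 796838.0, 985691.8 and 903772.9 normalized counts in M-MDSC Ctrl and 339193.2, 260449.5 and 273331.9 in PMN-MDSC Ctrl, a 3.09-fold higher value in M-MDSC (limma adjusted p = 2.6e-04). The calls on Malat1, Neat1 and Rn45s held without any 1 library. Under the scaling to totals without members the log2 changes were -1.30, -1.78 and 2.34. In these bulk libraries of sorted cells, fewer cells of a kind and less RNA per cell cannot be told apart. For Rn45s, neither can the precursor and ribosomal RNA left by the depletion.

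Gas5 stood at 1254.2, 1234.4 and 1215.1 normalized counts in M-MDSC Ctrl and at 986.4, 757.6 and 857.2 in PMN-MDSC Ctrl. The difference was small (log2 change 0.52 ± 0.22; limma adjusted p = 0.0448) and fell short of the threshold in 7 of the 12 fits without 1 library, with an adjusted p of up to 0.144 without PMN-MDSC Ctrl replicate 2. Under the scaling to totals without members the log2 change was 1.23. Rmrp scattered most, at 1270.4, 4111.7 and 650.7 normalized counts in M-MDSC Ctrl and 1054.8, 839.4 and 239.4 in PMN-MDSC Ctrl. Its groups overlapped. The call (log2 change 1.33 ± 0.57; limma adjusted p = 0.0447) held in 5 of the 12 fits without 1 library; the change was 0.61 without M-MDSC Ctrl replicate 2, with an adjusted p of 0.279, and 0.68 without PMN-MDSC Ctrl replicate 3, with an adjusted p of 0.262.

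**Figure D2:**
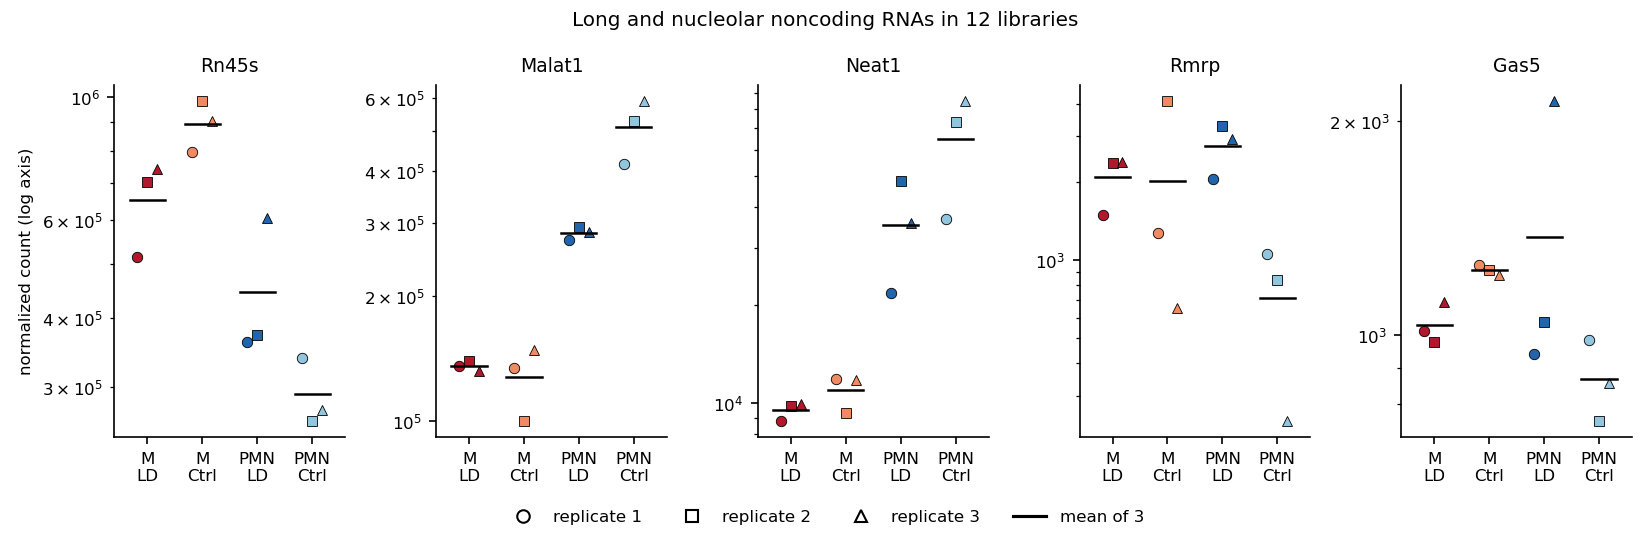
Normalized counts (log axis, a separate range per panel) of Rn45s, Malat1, Neat1, Rmrp and Gas5 in the 12 libraries, with symbols for the replicate number and a line at the mean of 3. Malat1 and Neat1 are lower in every M-MDSC library than in every PMN-MDSC library, and Malat1 in PMN-MDSC LD lies at 272225.7 to 292437.6, below all 3 PMN-MDSC Ctrl libraries.

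Among the Snord genes, the largest difference was in Snord104, with 113.5, 89.0 and 84.1 normalized counts in M-MDSC Ctrl and 13.3, 22.0 and 9.6 in PMN-MDSC Ctrl (6.33-fold higher in M-MDSC; limma adjusted p = 1.6e-04). Snord99 followed the same direction, with 151.1, 112.9 and 99.9 in M-MDSC Ctrl and 55.1, 38.7 and 9.6 in PMN-MDSC Ctrl (4.20-fold; limma adjusted p = 0.00677). The lowest of the 6 values was again that of PMN-MDSC Ctrl replicate 3, without which the log2 change of Snord99 was 1.35 instead of 2.07, with an adjusted p of 0.0413. Snord58b was 4.60-fold and Snord53 4.63-fold higher in M-MDSC Ctrl (limma adjusted p = 0.0022 and 0.0106); Snord53 lost its call without PMN-MDSC Ctrl replicate 1 (adjusted p = 0.0546). Snord15b, the most abundant, stood at 2603.1, 4541.3 and 3882.5 in M-MDSC Ctrl and at 2026.9, 1790.4 and 1111.0 in PMN-MDSC Ctrl, with no overlap (2.25-fold higher; limma adjusted p = 0.00492). For its neighbour Snord15a the log2 change was 0.38 ± 0.44 (limma adjusted p = 0.443), but 1.09 (adjusted p = 0.0293) under the scaling to totals without members.

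Snord89 was the single Snord gene called lower in M-MDSC Ctrl. It stood at 49.9, 39.2 and 46.0 normalized counts there and at 207.1, 176.7 and 288.9 in PMN-MDSC Ctrl, a 4.81-fold lower value (limma adjusted p = 1.6e-05). Snord89 lies in an intron of Gm15832, annotated as a processed transcript, whose level could not be read because no gene of the deposited table matched it.

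Snora21, in the ribosomal protein gene Rpl23, was lower in M-MDSC, with 13.6, 30.6 and 4.5 normalized counts in M-MDSC Ctrl and 60.2, 53.6 and 36.7 in PMN-MDSC Ctrl (log2 change -1.88 ± 0.65; limma adjusted p = 0.0162). The call was lost without M-MDSC Ctrl replicate 3 (log2 change -1.22, adjusted p = 0.0946), without PMN-MDSC Ctrl replicate 1 (adjusted p = 0.0533) and under the scaling to totals without members (adjusted p = 0.095). The other Snora gene called, Snora28, named here after its values were seen, was 2.84-fold lower (limma adjusted p = 0.00767; 0.104 under the scaling to totals without members). The abundant Snora61, Snora7a and Snora81 had log2 changes of 0.00 ± 0.46, -0.34 ± 0.36 and -0.20 ± 0.30, none past the threshold.

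Of the 5 Scarna genes tested, the 4 called lower in M-MDSC included the 3 most abundant. Scarna2, a guide RNA of the Cajal body, stood at 259.4, 303.3 and 274.9 normalized counts in M-MDSC Ctrl, against 1136.4, 878.0 and 680.0 in PMN-MDSC Ctrl (3.15-fold lower; limma adjusted p = 1.5e-05). Scarna13 stood at 156.9, 283.2 and 190.2, against 523.3, 399.0 and 338.4 in PMN-MDSC Ctrl (2.02-fold lower; limma adjusted p = 0.00158), and Scarna10 at 32.4, 51.7 and 23.0, against 209.1, 106.4 and 94.2 (3.70-fold lower; limma adjusted p = 0.00189). None of the 3 RNAs overlapped between the populations. The call on Scarna13 was lost under the scaling to totals without members (log2 change -0.31, adjusted p = 0.219). Scarna6, named after its values were seen, was 2.43-fold lower (limma adjusted p = 0.0278). It lost its call under that scaling as well (log2 change -0.60, adjusted p = 0.262) and without M-MDSC Ctrl replicate 3 (adjusted p = 0.0919) or PMN-MDSC Ctrl replicate 1 (0.0619) or 2 (0.0915).

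Of the host transcripts, Snhg6 stood at 41.5, 30.6 and 40.4 normalized counts in M-MDSC Ctrl and at 8.2, 1.8 and 8.0 in PMN-MDSC Ctrl (6.26-fold higher; limma adjusted p = 0.0059). Snhg1, the host of several box C/D RNAs, stood at 85.0, 73.7 and 85.8, against 42.8, 29.9 and 31.9 in PMN-MDSC Ctrl (2.32-fold higher; limma adjusted p = 0.0209); its call was lost in 4 of the 12 fits without 1 library, with an adjusted p of up to 0.0631. Snhg8 and Snhg5 had log2 changes of -0.35 ± 0.30 and 0.61 ± 0.32 and were not called. Snhg5 was called higher under the scaling to totals without members (log2 change 1.31, adjusted p = 0.00255) and without PMN-MDSC Ctrl replicate 2 (0.84, adjusted p = 0.048).

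Under LD, 33 of the 73 members (45.2%) differed between the populations, 3 higher and 30 lower in M-MDSC, against 74.8% of all genes, 38.8% higher and 36.1% lower. All 21 Snora genes tested had a negative log2 change, with a median of -1.87, and 15 were called lower. Of the 35 Snord genes, 9 were lower and 1 higher, with a median of -0.69 (0.09 when scaled to totals without members), and 4 of 5 Scarna genes were lower, with a median of -1.40. Libraries did not overlap for 4 members higher and 29 lower, against 38.7% and 36.5% of all genes. The median of all genes was 0.10. Under the scaling to totals without members that median was 0.90, and 11 members were higher and 16 lower. There 4 Snord genes were higher and 2 lower, while the Snora median was -1.09, with 18 of 21 values negative and 10 called lower. With TMM scaling 5 were higher and 26 lower. Shares of all genes called under these 2 scalings are not given here, so the counts are not results about the members alone. The Ctrl and LD comparisons share no library.

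Snora44 showed the widest gap of the named Snora genes, with 17.4, 17.8 and 20.7 normalized counts in M-MDSC LD, against 117.7, 153.0 and 157.1 in PMN-MDSC LD (7.27-fold lower; limma adjusted p = 2.4e-04). Snora7a stood at 48.5, 52.6 and 67.0 normalized counts in M-MDSC LD, against 116.3, 210.3 and 251.0 in PMN-MDSC LD (3.26-fold lower; limma adjusted p = 6.6e-04). Snora61 was 3.28-fold lower (limma adjusted p = 0.00374; 0.0704 under the scaling to totals without members) and Snora21 5.85-fold lower (limma adjusted p = 0.00241). No value of these 4 genes overlapped between the LD groups. Snora5c and Snord8, named after their values were seen, had log2 changes of -2.91 and -2.85 (limma adjusted p = 0.00413 and 0.00111). Snora81, in Eif4a2, was the steadiest of the abundant Snora genes, at 65.9, 62.0 and 57.1 normalized counts in M-MDSC LD and 70.3, 72.1 and 77.1 in PMN-MDSC LD (log2 change -0.24 ± 0.30, not called).

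The 3 members higher in M-MDSC under LD were Snhg1, Snhg7 and Snord96a, of which the last 2 are named after their values were seen. Snhg1 stood at 84.0, 44.2 and 50.2 normalized counts in M-MDSC LD, against 21.6, 5.9 and 9.8 in PMN-MDSC LD (4.89-fold higher; limma adjusted p = 2.6e-04). Snhg7 was 4.03-fold higher and its groups overlapped (limma adjusted p = 0.0198); its call was lost without M-MDSC LD replicate 2 (adjusted p = 0.0943) or PMN-MDSC LD replicate 1 (0.0912). Snord96a, in Gnb2l1, the gene now named Rack1, was 7.80-fold higher (limma adjusted p = 9.7e-04), with 22.5, 10.2 and 15.8 normalized counts in M-MDSC LD, against 1.4, 2.9 and 0.0 in PMN-MDSC LD. Malat1 and Neat1 stayed lower in M-MDSC LD, by log2 changes of -1.06 ± 0.22 and -1.82 ± 0.29 (limma adjusted p = 5.4e-04 and 4.2e-05); Malat1 fell short under the scaling to totals without members (adjusted p = 0.175). For Rn45s the log2 change was 0.57 ± 0.31 and for Rmrp -0.41 ± 0.57, neither past the threshold in limma. Rn45s was called higher by DESeq2 (adjusted p = 0.00757), by edgeR (0.00859), with TMM scaling (0.0462) and under the scaling to totals without members (log2 change 1.37, adjusted p = 3.1e-05), and also without M-MDSC LD replicate 1 (0.0453) or PMN-MDSC LD replicate 3 (0.0316). Gas5 had a log2 change of -0.31 ± 0.22 (limma adjusted p = 0.216), which turned to 0.49 (adjusted p = 0.035) under the scaling to totals without members.

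**Figure D3:**
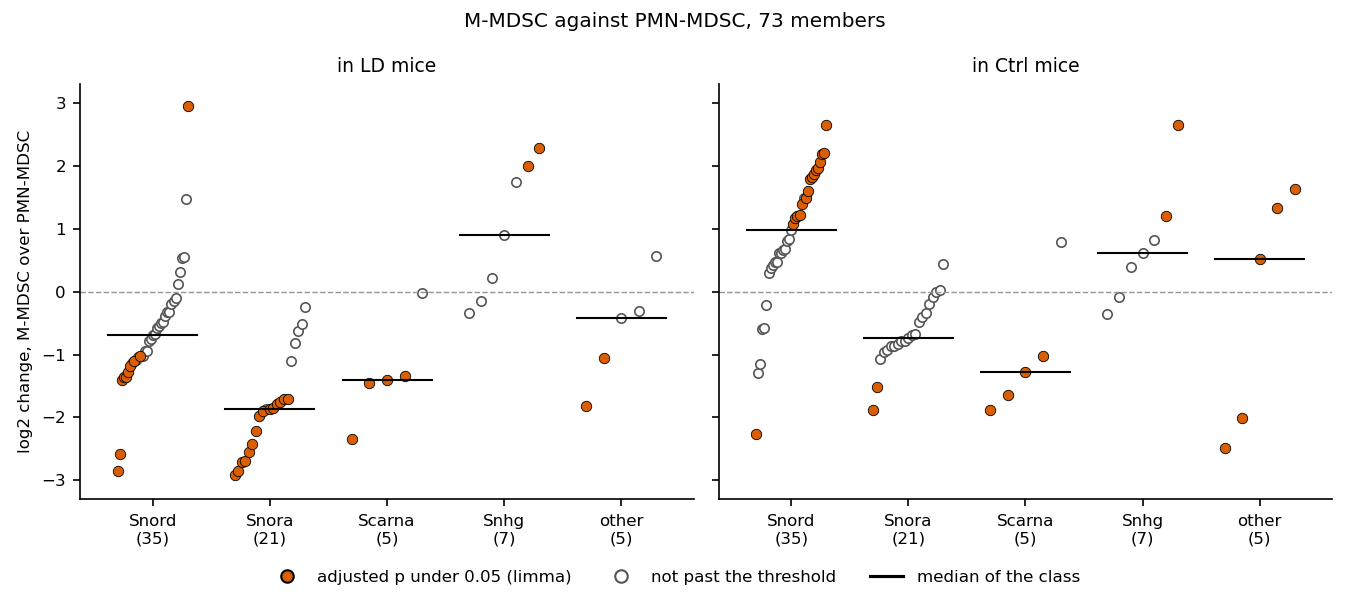
Log2 change of M-MDSC over PMN-MDSC (y axis) for each of the 73 tested members, by class (x axis, number tested in brackets), in LD mice (left) and Ctrl mice (right). Filled points pass the limma threshold and lines mark class medians; the Snord median is -0.69 in LD mice (0.09 when scaled to totals without members) and 0.98 in Ctrl mice, while the Snora medians are -1.87 and -0.74.

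The second question was what LD did within each population. In M-MDSC no member passed the threshold (0 of 73, limma; 3.01% of all genes were called, 2.54% higher and 0.468% lower). At an unadjusted p under 0.05 there were 6 of 73 members, against 1461 of all 11122 genes. Of the members, edgeR called 0 and DESeq2 called 1, Snora31, lower in LD. Snora31, named after its values were seen, stood at 5.8, 9.3 and 3.9 normalized counts in M-MDSC LD and at 28.5, 32.5 and 16.8 in M-MDSC Ctrl (log2 change -1.89 ± 0.57; limma adjusted p = 0.0941). The log2 change was negative for 33 of 35 Snord genes, with a median of -0.61, against a median of -0.04 over all genes. In 13 Snord genes all 3 LD libraries lay below all 3 Ctrl libraries; over all 73 members this held for 16, and over all genes for 12.4%, while in no member (0) did all LD libraries lie above, as they did for 10.6% of all genes. Snord15b, for example, stood at 1421.3, 3654.6 and 2493.4 normalized counts in M-MDSC LD and at 2603.1, 4541.3 and 3882.5 in M-MDSC Ctrl, which overlap. For Malat1 the log2 change was 0.11 ± 0.22, for Neat1 -0.20 ± 0.29, for Gas5 -0.26 ± 0.22, for Rn45s -0.47 ± 0.31 and for Rmrp 0.43 ± 0.57.

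In PMN-MDSC 9 of 73 members (12.3%) changed with LD, 6 higher and 3 lower, against 15.7% of all genes, 7.17% higher and 8.51% lower. The 6 that rose were Rmrp, Snord35a, Snora44, Snord12, Snord47 and Snord15b, and the 3 that fell were Malat1, Snord89 and Snhg1. At an unadjusted p under 0.05 there were 33 of 73, against 3430 of all 11122 genes. The median log2 change was 1.04 over the 35 Snord and 0.90 over the 21 Snora genes, against -0.05 over all genes, and 30 of the 35 Snord genes had a positive value. LD and Ctrl libraries did not overlap for 14 members higher and 4 lower in LD, against 14.1% and 17.8% of all genes. The count of 9 rests on single libraries. It was 25 without PMN-MDSC LD replicate 1, 4 without PMN-MDSC LD replicate 2, 3 without PMN-MDSC LD replicate 3, 2 without PMN-MDSC Ctrl replicate 2 and 1, Snord89, without PMN-MDSC Ctrl replicate 3. The shares of all genes called in these fits are not given here.

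Rmrp stood at 2043.7, 3284.5 and 2915.4 normalized counts in PMN-MDSC LD, all above the 1054.8, 839.4 and 239.4 of PMN-MDSC Ctrl. It was 4.51-fold higher (log2 change 2.17 ± 0.57; limma adjusted p = 0.0197). Without PMN-MDSC Ctrl replicate 3 the log2 change was 1.52 and the adjusted p 0.0972, and the call was also lost without PMN-MDSC LD replicate 2 (0.0592) or replicate 3 (0.0568). The annotation holds 2 gene models named Rmrp, whereas the counts have 1 row for it.

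Malat1 fell in PMN-MDSC LD, with 272225.7, 292437.6 and 285452.8 normalized counts, against 415036.0, 526556.6 and 590364.8 in PMN-MDSC Ctrl. The groups did not overlap (log2 change -0.84 ± 0.22; limma adjusted p = 0.0217), but the call was lost without PMN-MDSC Ctrl replicate 2 (adjusted p = 0.0808) or replicate 3 (0.0937). Neat1 had a log2 change of -0.87 ± 0.29 and missed the threshold (limma adjusted p = 0.0526), with 21808.6, 48243.4 and 35716.5 normalized counts in PMN-MDSC LD and 36750.3, 73285.1 and 85205.7 in PMN-MDSC Ctrl. It passed as lower by DESeq2 (adjusted p = 0.0399), by edgeR (0.0353), with a minimum mean of 50, a pseudocount of 8 or a replicate block (0.0477, 0.0435 and 0.0287), under the scaling to totals without members (0.032), and without PMN-MDSC Ctrl replicate 1 (log2 change -1.24, adjusted p = 0.0076) or PMN-MDSC LD replicate 2 (-1.13, 0.0248). Rn45s stood at 362296.2, 371696.0 and 604480.7 in PMN-MDSC LD and 339193.2, 260449.5 and 273331.9 in PMN-MDSC Ctrl, apart but not called (log2 change 0.58 ± 0.31; limma adjusted p = 0.219; DESeq2 adjusted p = 0.0133). Gas5 was at 940.0, 1042.9 and 2137.1 in PMN-MDSC LD, where replicate 3 alone was high, and at 986.4, 757.6 and 857.2 in PMN-MDSC Ctrl (log2 change 0.57 ± 0.22; limma adjusted p = 0.0947; DESeq2 adjusted p = 0.0337; 0.0192 without PMN-MDSC LD replicate 1).

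Snord89, whose sequence is given above, fell to 100.1, 82.4 and 57.5 normalized counts in PMN-MDSC LD, against 207.1, 176.7 and 288.9 in PMN-MDSC Ctrl. It was 2.79-fold lower (log2 change -1.48 ± 0.32; limma adjusted p = 0.0078) and was called in all 12 fits without 1 library, with an adjusted p of at most 0.0498.

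Snord15b stood at 2174.9, 4061.1 and 3988.1 normalized counts in PMN-MDSC LD, above the 2026.9, 1790.4 and 1111.0 of PMN-MDSC Ctrl (2.06-fold higher; limma adjusted p = 0.0448). Its call was lost in 7 of the 12 fits without 1 library, with an adjusted p of up to 0.192 without PMN-MDSC Ctrl replicate 3. Snord35a, in an intron of Rpl13a, was at 51.4, 35.3 and 99.6, against 29.6, 18.5 and 4.8 in PMN-MDSC Ctrl (3.82-fold higher; limma adjusted p = 0.0351), and its log2 change was 1.24 instead of 1.93 without PMN-MDSC Ctrl replicate 3 (adjusted p = 0.151). The call on Snord35a was also lost without PMN-MDSC Ctrl replicate 2 (0.0595) or PMN-MDSC LD replicate 3 (0.129). Snora44 was at 117.7, 153.0 and 157.1, against 60.2, 56.3 and 20.8 (3.36-fold higher, limma adjusted p = 0.0419). Its call was lost without PMN-MDSC Ctrl replicate 2 (0.0633) or 3 (0.184) or PMN-MDSC LD replicate 2 (0.092) or 3 (0.104). The same held without M-MDSC Ctrl replicate 1 (0.0514) or M-MDSC LD replicate 2 (0.0506) or 3 (0.0537), by edgeR (0.057) and with no minimum (0.0775). None of these 3 overlapped between the groups.

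Snord47, in Gas5, was at 113.6, 179.4 and 427.7 normalized counts in PMN-MDSC LD and at 123.4, 64.2 and 39.9 in PMN-MDSC Ctrl, which overlap (2.99-fold higher; limma adjusted p = 0.0348). Snord12 was at 39.2, 88.3 and 185.1 in PMN-MDSC LD and at 42.8, 22.9 and 22.3 in PMN-MDSC Ctrl, which overlap too (3.01-fold higher; limma adjusted p = 0.0374). Both were highest in PMN-MDSC LD replicate 3, without which their log2 changes were 1.05 and 1.05 (adjusted p = 0.143 and 0.15), instead of 1.58 and 1.59. Without PMN-MDSC Ctrl replicate 3 the adjusted p was 0.156 for Snord47 and 0.13 for Snord12. Both calls were also lost without PMN-MDSC Ctrl replicate 2 (0.0915 and 0.113) or PMN-MDSC LD replicate 2 (0.0579 and 0.0771). That of Snord12 was lost as well without M-MDSC Ctrl replicate 3 (0.0521) or M-MDSC LD replicate 3 (0.0501). Both snoRNAs lie in exons of at least 1 transcript of their hosts. The host of Snord12, listed as 1500012F01Rik and now named Zfas1, had a log2 change of -0.23 ± 0.29 (limma adjusted p = 0.638).

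Snhg1 fell to 21.6, 5.9 and 9.8 normalized counts in PMN-MDSC LD, against 42.8, 29.9 and 31.9 in PMN-MDSC Ctrl (2.98-fold lower; limma adjusted p = 0.0265). Its call was lost in 5 of the 12 fits without 1 library, those without PMN-MDSC LD replicate 2 or 3 or any PMN-MDSC Ctrl library, with an adjusted p of at most 0.079. Snord22, the U22 RNA, known from frog to be needed for small-subunit ribosomal RNA and named after its values were seen, lies inside Snhg1. It was at 196.1, 539.8 and 520.3 normalized counts in PMN-MDSC LD and at 162.2, 198.6 and 57.5 in PMN-MDSC Ctrl (log2 change 1.62 ± 0.61; limma adjusted p = 0.0882), while its host fell.

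**Figure D4:**
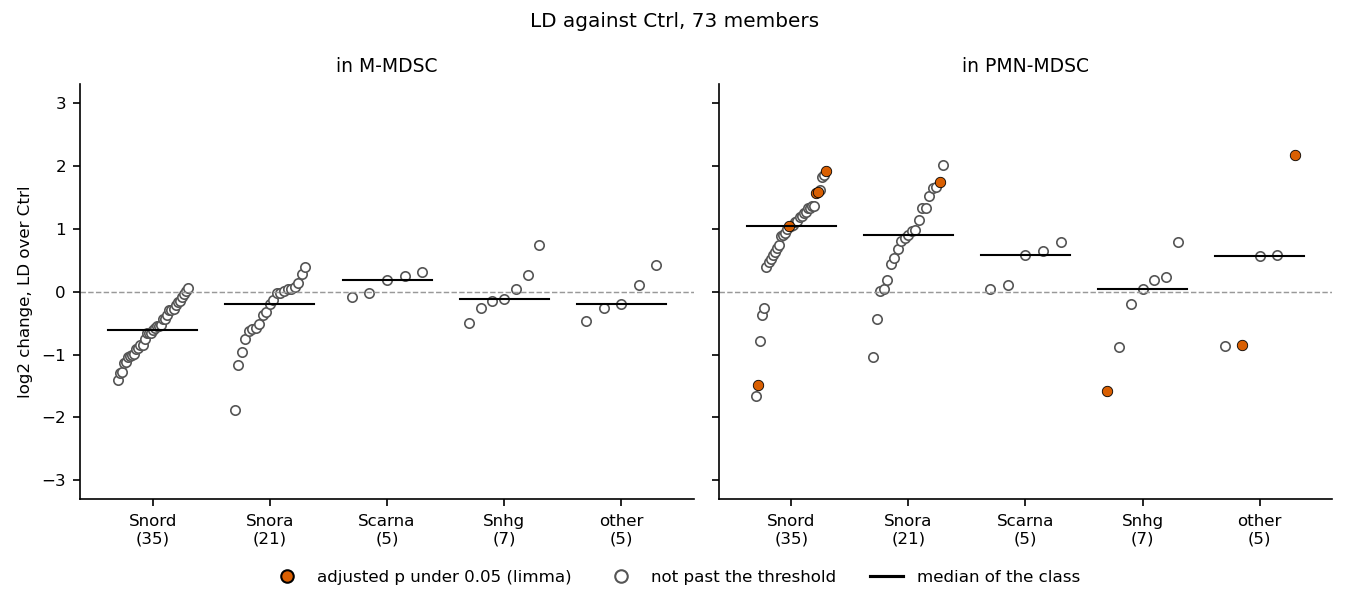
Log2 change of LD over Ctrl (y axis) for each of the 73 tested members, by class (x axis, number tested in brackets), in M-MDSC (left) and PMN-MDSC (right). Filled points pass the limma threshold, of which there are 0 in M-MDSC and 9 in PMN-MDSC, and lines mark class medians; the Snord medians are -0.61 (M-MDSC) and 1.04 (PMN-MDSC).

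The LD changes were then compared between the populations. For no member did they differ past the threshold (0 of 73, limma; 2.25% of all genes were called, 1.18% higher and 1.07% lower). At an unadjusted p under 0.05 there were 28 of 73 members, against 2000 of all 11122 genes. DESeq2 called 14 and edgeR 1, Malat1 (edgeR adjusted p = 0.0246). The median difference was -1.12 over the members, -1.65 over the 35 Snord and -1.12 over the 21 Snora genes, against 0.04 over all genes. The lowest adjusted p was that of Snord35a, with a log2 difference of -2.92 ± 0.81, M-MDSC change minus PMN-MDSC change (limma adjusted p = 0.0751). Without PMN-MDSC LD replicate 1, the library rich in cell division markers, 15 members were called, all with a lower change in M-MDSC. The shares of all genes called in that fit, by DESeq2 and by edgeR are not given here. These counts are therefore not results about the members alone. The opposite signs of the Snord medians in the populations carry no test.

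Each snoRNA and scaRNA was set beside its host, the gene whose span holds it on the same strand. Of 119 such RNAs, 118 had a gene model, 112 lay inside a host and 32 inside a ribosomal protein gene. Both partners were tested in 51 pairs with 40 hosts. In M-MDSC against PMN-MDSC in LD mice, all 16 Snora genes had a lower log2 change than their hosts, with medians of -1.86 for the Snora genes and 1.08 for the hosts. In Ctrl mice 15 of 16 did, with medians of -0.68 and 1.32. Of the 33 Snord pairs, 31 were below the host in LD mice (medians -0.69 and 1.42) and 23 in Ctrl mice (0.98 and 1.31). A change of scaling shifts a snoRNA and its host alike, and these 4 counts were the same with TMM scaling and with totals without members; low counts are drawn towards 0 by the added 1.

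Which partners were called did depend on the scaling. Opposite calls on snoRNA and host were made in 10 of 51 pairs under LD, in 7 with TMM scaling and in 9 with totals without members. Over all genes, 38.8% were called higher and 36.1% lower under LD, so opposite calls alone do not set these pairs apart. Snora7a, Snora21, Snora62, Snora68 and Snord22 were opposite to their hosts under all 3 scalings. The 6 Snora genes among the 10, Snora7a, Snora21, Snora62, Snora64, Snora68 and Snora70, all lie in ribosomal protein genes. Ribosomal protein genes also hold tested Snora genes that were not among the 6. With totals without members, the opposite Snora genes included Snora16a and Snora44, which lie in Snhg12. The log2 change of Snora7a in M-MDSC LD against PMN-MDSC LD was -1.70, while that of its host Rpl32 was 2.51 ± 0.18 (limma adjusted p = 1.4e-08). For Snora21 and its host Rpl23 the log2 changes were -2.55 and 1.19 ± 0.15 (limma adjusted p = 4.5e-06). In Ctrl mice 38.8% of all genes were called higher and 36.8% lower. The only opposite pair there was Snora21 and Rpl23 (0 pairs with totals without members). Calls in the same direction were made in 13 of 33 Snord pairs (25 with those totals). With so many of all genes called, such calls alone do not set these pairs apart either. The 13 included Snord15b and Rps3, a small-subunit protein gene with a log2 change of 1.34 ± 0.16 in M-MDSC against PMN-MDSC (limma adjusted p = 2.0e-06). Snord15b lies inside an Rps3 exon, so host reads can overlap it. Its neighbour Snord15a, in an intron of Rps3, was called with those totals only.

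The LD change was also set beside that of the host. In PMN-MDSC 29 of 33 Snord genes had a higher log2 change than the host, with medians of 1.04 for the Snord genes and 0.03 for the hosts. In M-MDSC 29 of 33 had a lower one, with medians of -0.61 and 0.00. In no pair were both partners called with LD, in either population. Rpl13a, a large-subunit protein gene, holds 3 tested snoRNAs, Snord32a, Snord34 and Snord35a, with log2 changes of 1.25, 1.12 and 1.93 in PMN-MDSC, while Rpl13a itself stood at 1386.4, 1378.2 and 1093.8 normalized counts in PMN-MDSC LD and 1417.9, 1270.1 and 1021.6 in PMN-MDSC Ctrl (log2 change 0.06 ± 0.12; limma adjusted p = 0.77). Of the 3, Snord35a passed the threshold.

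The Snhg12 gene on chromosome 4 carries RNAs of both classes, the 4 whose sequences are given above. Snhg12 itself stood at 44.9, 37.4 and 37.4 normalized counts in M-MDSC LD, 27.2, 28.7 and 46.0 in M-MDSC Ctrl, 12.2, 26.5 and 28.0 in PMN-MDSC LD and 11.2, 21.1 and 25.5 in PMN-MDSC Ctrl. In untreated mice the box C/D RNA Snord99 was higher in M-MDSC by 2.07 on the log2 scale, whereas the box H/ACA RNAs Snora44, Snora61 and Snora16a had log2 changes of -0.93, 0.00 and -0.40, none of them called (limma adjusted p = 0.133, 0.999 and 0.503); Snora44 was called lower without M-MDSC Ctrl replicate 2 (log2 change -1.61, adjusted p = 0.00836) or PMN-MDSC Ctrl replicate 3 (-1.41, 0.0357). Under LD the 3 Snora genes were lower in M-MDSC, by log2 changes of -2.86, -1.71 and -2.69 (limma adjusted p of 0.00374 or less), and Snord99 had a log2 change of -0.78 ± 0.61 that was not called. All 4 lie in exons of at least 1 Snhg12 transcript, so host reads can overlap them; their part was not tested.

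**Figure D5:**
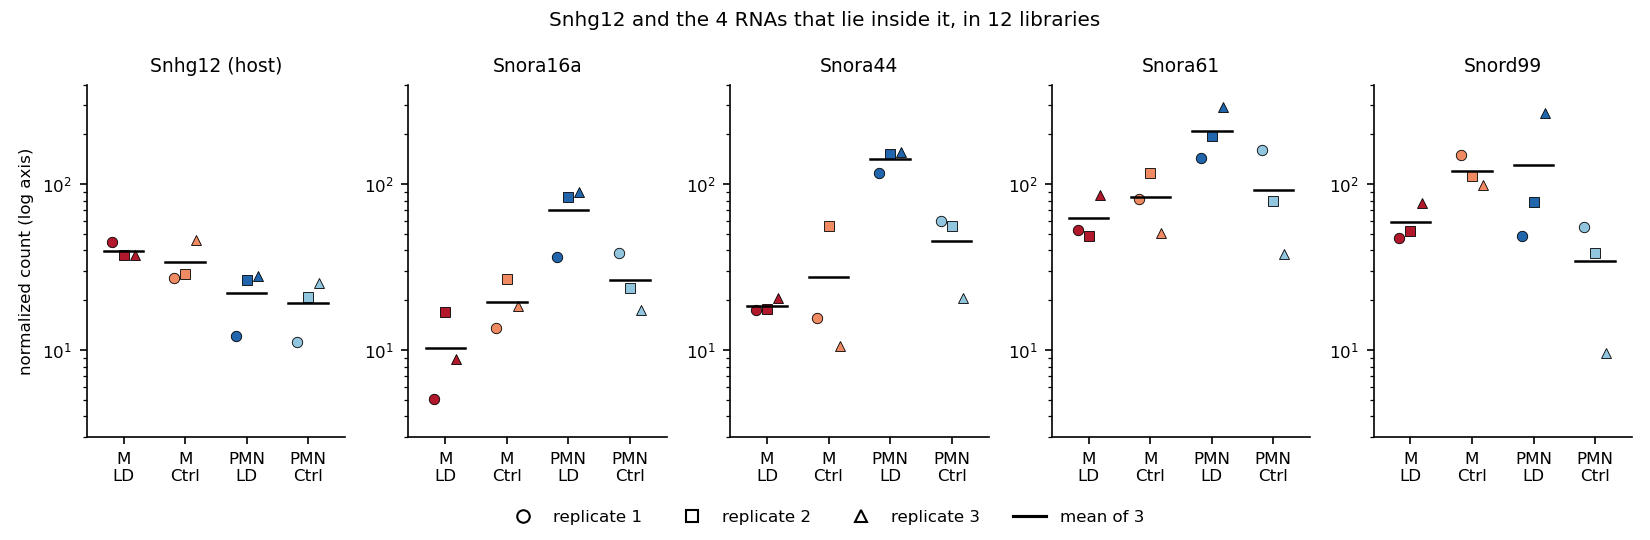
Normalized counts (log axis, the same range in each panel) of Snhg12, the 3 Snora genes and Snord99 in the 12 libraries, with symbols for the replicate number and a line at the mean of 3. Snora44 lies at 117.7 to 157.1 in PMN-MDSC LD and at 17.4 to 20.7 in M-MDSC LD, while Snhg12 lies at 12.2 to 28.0 and 37.4 to 44.9.

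Proteins that act with these RNAs were read from lists of 70 tested genes. Over all genes, 38.8% were called higher and 36.8% lower in M-MDSC against PMN-MDSC in Ctrl mice, with a median log2 change of 0.06. All 8 tested core proteins of snoRNA particles were higher in that comparison, 0 lower, with a median log2 change of 1.74. Fbl, the methyltransferase fibrillarin, averaged 382.5 ± 34.5 normalized counts in M-MDSC Ctrl and 34.7 ± 21.8 in PMN-MDSC Ctrl (SD, n = 3 each; 12.11-fold; limma adjusted p = 3.3e-07), and Nop56, a box C/D core protein, 371.5 ± 7.9 and 150.6 ± 23.2 (2.48-fold; limma adjusted p = 3.8e-06). Of 13 assembly and Cajal body factors 10 were higher and 0 lower, among them Tcof1, the nucleolar factor treacle (log2 change 3.17 ± 0.21), and Naf1, an H/ACA assembly factor (4.57 ± 0.46). Early small-subunit processing factors were higher in 11 of 12 cases, led by Heatr1 (2.64 ± 0.16) and Utp20 (4.23 ± 0.37). RNase MRP and P proteins were higher in 6 of 7, with Pop4 at 1.43 ± 0.28 and Pop5 at 2.90 ± 0.65. The core proteins, which belong to both box classes, were called higher, 8 of 8, under each of the 3 scalings. In the same comparison 16 of 35 Snord and 0 of 21 Snora genes were called higher. With totals without members these were 27 of 36 and 0 of 21, where the share of all genes called higher is not given here.

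RNA polymerase I genes were mixed, with 9 of 14 higher and 3 lower (10 and 1 when scaled to totals without members); Rrn3, an initiation factor, had a log2 change of 2.77 ± 0.26 and Polr1a, the largest subunit, -1.99 ± 0.20. Paraspeckle proteins were higher in 2 of 8 and lower in 5, with Pspc1 at -1.04 ± 0.13 and a list median of -0.30, a split that turned to 5 higher and 2 lower when scaled to totals without members. Factors of nonsense-mediated decay, which degrades many Snhg transcripts, were higher in 1 of 8 and lower in 4, with Upf2 at -1.87 ± 0.12, and turned likewise to 4 higher and 1 lower under that scaling. LD called 0 of the 70 genes in M-MDSC, against 3.01% of all genes, and 10 of 70 (14.3%) in PMN-MDSC, close to the 15.7% of all genes. Among the 10, Tardbp (log2 change -0.42 ± 0.13; limma adjusted p = 0.036) and Heatr1 (-0.97 ± 0.16; 0.00167) fell and Pop4 (0.89 ± 0.28; 0.0449) and Naf1 (1.46 ± 0.46; 0.0449) rose, but no member of the lists of Pop4 and Naf1 was called higher when scaled to totals without members. None of the 8 core proteins was called in either population.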

How the data were processed

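RNA of sorted M-MDSC and PMN-MDSC was measured in 12 libraries. The authors deposited 1 table whose unit is a signal, a normalized read count made by dividing reads by 1 size factor per library; every value was a whole multiple of its library's step (100.0% within 0.001 reads), so reads were recovered for counting. Per the submitters' processing notes, reads were handled on mm10 with tools that included STAR 2.5.3a, DESeq2 and HTSeq 0.6.1; roles, annotation, strand and the handling of multiple matches were not given in the sources used here. Reads carry no molecular identifiers, so depth bounds counting error only.

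Changes were tested with limma 3.58.1 (R 4.3.3) on log2(normalized count + 1), which understates changes of low genes, over 11122 genes with a mean of at least 10, with 1 mean per group, trended empirical Bayes, 8 residual degrees of freedom, two-sided p and Benjamini-Hochberg adjustment over all genes of a comparison, at 0.05. The test was also run on simulated counts with 1 fixed spread for all genes and changes in M-MDSC LD only. That run does not speak to the scatter of the members. Each result was recomputed with 0.5 or 8 as pseudocount, no minimum or a mean of 50, TMM or member-free totals as scaling, edgeR 4.0.16, DESeq2 1.42.0, a replicate block, 2 groups alone and without each library. Coordinates, hosts and sequences came from GENCODE M21, where RefSeq had been planned for hosts; hosts under older symbols were matched through RefSeq synonyms that are no gene of their own in M21.

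The members, lists and rules were chosen with earlier results of these data known. Named members were the 5 single RNAs, the 3 highest of each class, those called with LD and the 5 largest differences each way among calls in Ctrl, with 2 genes per list of partner proteins. Snora5c, Snora16a, Snora28, Snora31, Snora62, Snora64, Snora68, Snora70, Snord8, Snord14c, Snord14d, Snord22, Snord32a, Snord34, Snord82, Snord96a, Snord116, Snord118, Scarna6, Snhg7 and Snhg12, and Tardbp among the list genes, were named after their values were seen.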

Additional observations from a re-analysis of the deposited data

How the results depend on the processing

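Counts of called members moved with the setting. Shares of all genes called under the other settings are not given here. With LD in M-MDSC, DESeq2 called 1 member where limma called 0, and leaving out 1 library gave 0 to 1. With LD in PMN-MDSC, where limma called 9, DESeq2 called 17, a pseudocount of 8 gave 15, no minimum level gave 5, and leaving out 1 library gave 1 to 25. For the difference of the LD changes, where limma called 0, DESeq2 called 14, and edgeR, a pseudocount of 8 and totals without members 1 each; leaving out 1 library gave 0 to 15. For M-MDSC against PMN-MDSC, a minimum mean of 50 left 17 calls of 30 in Ctrl mice and 14 of 33 in LD mice, since fewer members were tested, and leaving out 1 library gave 20 to 33 and 25 to 44. The cause of the other moves was not tested.

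Of the 70 partner genes, LD in M-MDSC called 0, but 1 with 2 groups fitted alone and 2 by DESeq2, and 0 to 1 without 1 library. LD in PMN-MDSC called 10, but 5 with 2 groups fitted alone, 18 by DESeq2 and 4 with no minimum, and 5 to 10 without 1 library. The difference called 0, but 2 by DESeq2 and 1 by edgeR and with totals without members, and 0 to 4 without 1 library; the calls between populations ran from 54 to 60 in Ctrl mice and 54 to 58 in LD mice.

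Same-numbered libraries of different groups deviated with correlations of -0.047 to 0.208, 3 of 12 above 0.1, so the numbers were not taken as pairs. With a replicate block 1 member, Snord15b, was called in the difference of the LD changes (log2 difference -1.65, adjusted p = 0.0396) and 13 with LD in PMN-MDSC.

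Members with at least 3 reads averaged 97.7 in M-MDSC LD, 104.3 in M-MDSC Ctrl, 88.7 in PMN-MDSC LD and 89.3 in PMN-MDSC Ctrl, and with at least 10 reads 72.0, 87.7, 69.0 and 64.3. Thinned to the lowest depth, M-MDSC Ctrl averaged 109.6 and PMN-MDSC Ctrl 101.8. With totals without members as scaling, Snora genes summed to 642.7 in M-MDSC LD, Snord genes to 9153.7 in M-MDSC Ctrl, Scarna genes to 943.4 in M-MDSC LD and 785.3 in M-MDSC Ctrl, and Snhg genes to 427.3 in M-MDSC LD, 460.5 in M-MDSC Ctrl, 161.9 in PMN-MDSC LD and 181.0 in PMN-MDSC Ctrl. Under that scaling Gas5 turned to a log2 change of 0.49 for M-MDSC against PMN-MDSC in LD mice. Over 3022 tests of named genes under the alternatives, 2846 kept their side of the threshold, 91 lost the call and 84 gained one. In 1, that of Gas5 in LD mice, the sign turned and a call was gained. Uncalled changes that turned in sign count among the 2846. Snhg8 in Ctrl mice is an example, as all 7 tested Snhg genes had positive log2 changes under totals without members.

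Without 1 library the summed levels ranged as follows. Snora genes were at 435.5 to 523.0 in M-MDSC LD, 473.5 to 705.6 in M-MDSC Ctrl, 1431.9 to 1975.3 in PMN-MDSC LD and 735.0 to 997.2 in PMN-MDSC Ctrl. The corresponding Snord sums were 3997.3 to 5557.6, 6125.5 to 7729.0, 6551.5 to 9394.9 and 3356.5 to 4376.0.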
